A study of Mus musculus with 12 samples.

Results

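The respiratory chain genes described here are 49 rows of the count files, of 32288 rows in all, taken by a fixed list of symbols that uses no measured value. They comprise the 13 protein genes of the mitochondrial genome, whose symbols start with mt-, and 36 nuclear genes. Of the nuclear genes, 16 encode subunits of complex I, 4 of complex II, 7 of complex III and 8 of complex IV, and 1, Cycs, encodes cytochrome c. All 49 symbols were found in the files. The data came from 12 tumors of adult DBA/2 mice, each mouse carrying 1 subcutaneous tumor of engineered P815 cells, a mouse mastocytoma line derived from mast cells. P815-IFNγ cells (P815-IFNG below) carry the light-sensitive activator GAVPO under an EF-1α promoter, a UAS-driven cassette of murine Ifng, Cxcl10 and a secreted luciferase, and a constitutive mRuby and firefly luciferase cassette. P815-M cells are the control line and carry the mRuby and firefly luciferase cassette alone, and each line is 1 clone. Tumors grew for 7 days, and the mice then had 6 days of blue light in a cycle of 12 h light and 12 h dark (light groups) or no blue light (dark groups), with 3 mice in each of the 4 groups. A difference between the lines is therefore also a difference between 2 clones.

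The respiratory chain passes electrons from NADH (at complex I) and succinate (at complex II) through ubiquinone to complex III, then through cytochrome c to complex IV, which reduces oxygen. Complexes I, III and IV move protons across the inner mitochondrial membrane, and complex V, the ATP synthase, uses the gradient. Subunits of complexes I, III, IV and V are encoded in both genomes, whereas complex II and cytochrome c are encoded in the nucleus alone. Mitochondrial DNA is transcribed from both strands as long precursors that are then cut, and mt-Nd6 is the only protein gene whose message reads from the opposite strand. Tumor cells, macrophages, muscle and fat all express these genes at different levels, so that in a piece of tumor fewer cells of a type and less RNA per cell cannot be told apart.

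The libraries were of 2 kinds. In 10 libraries the total lay between 2211234 and 2946792 counts, whereas replicate 3 of P815-IFNG light and replicate 3 of P815-IFNG dark held 41473500 and 42338096 counts. These 2 deep libraries are given apart throughout, and they stand only in the P815-IFNG groups. Some genes have exons that overlap those of another gene on the other strand by at least 100 bases. They held 24.4% to 25.1% of the counts in the deep libraries and 51.9% to 64.5% in the other 10. Whether both kinds were counted on the same strand was not tested. A count in the 10 libraries may therefore not stand for the message of the gene named. The count of GAVPO was between 1040 and 79894 in the P815-IFNG libraries and at most 4 in the P815-M libraries, as the labels have it. The mast cell genes Kit, Cpa3 and Gata2 each had at least 649 counts in every library.

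Several mitochondrial genes have close copies in the nuclear genome, and the sequences are shown because 5 of the 6 genes near 0 below have such a copy. A stretch of chromosome 1 (GRCm38, also called mm10, chr1:24611535-24616197, minus strand) holds 7 annotated pseudogenes that match, in the same order, part of mt-Co1, then mt-Co2, mt-Atp6, mt-Co3, mt-Nd3, mt-Nd4l and part of mt-Nd4. None of the 7 copies is a row of the count files. The first 60 bases of mt-Co2 (chrM:7013-7696, plus strand) and of its copy Gm28661 (chr1:24614885-24615565, minus strand), both from the GENCODE M21 transcripts of GRCm38, are the same.
mt-Co2: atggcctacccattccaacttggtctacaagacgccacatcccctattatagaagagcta
Gm28661: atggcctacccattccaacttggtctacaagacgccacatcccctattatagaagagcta
Over the whole copy, 681 of 681 aligned bases of mt-Co2 were identical, as were 678 of 678 for mt-Atp6, 783 of 783 for mt-Co3 and 294 of 294 for mt-Nd4l. The copy of mt-Nd3, Gm28438, had 344 of 345 identical bases and differed at T3C, counted from 1 at the first base of mt-Nd3, which is in capitals here.
mt-Nd3: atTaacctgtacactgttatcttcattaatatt
Gm28438: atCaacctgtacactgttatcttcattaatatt
Of all 100-base stretches of a gene, the share that also occurs in another annotated transcript was 99.5% for mt-Co2, 60.8% for mt-Nd4 and 30.8% for mt-Co1, and 0 for mt-Nd1, mt-Nd5, mt-Nd6 and mt-Cytb. Among the nuclear genes, 14 of 36 shared any such stretch and 0 shared more than 50% of them. The highest shares were 22.6% for Cycs, with Gm10053, and 16.2% for Cox7c, with Gm10012.

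A run of 6 neighbouring mitochondrial genes was at or near 0 in every library, while the genes on both sides were among the most abundant. In the 10 libraries the rows of mt-Co2, mt-Atp8, mt-Atp6, mt-Co3, mt-Nd3 and mt-Nd4l summed to 0 to 5 counts a library, and in the deep libraries to 173 (light) and 114 (dark). In the same deep libraries mt-Co1, the catalytic core of complex IV, had 1170954 and 730993 counts. The highest count of any of these rows was 71, for mt-Co2 in the deep light library. These are the genes that lie between mt-Co1 and mt-Nd4 on the mitochondrial genome. For all but mt-Atp8 a nearly full-length copy is annotated on chromosome 1, and mt-Atp8, which lies between mt-Co2 and mt-Atp6, has no annotated copy of its own. The authors counted reads with HTSeq at its default settings, which leave out reads that align equally well to more than 1 place, and the part of this in the low counts was not tested. Expression of these genes, which encode core subunits of complexes I, IV and V, therefore cannot be read from these counts. The rows of mt-Nd4l and mt-Atp8 had fewer than 10 counts in all and were not tested, which left 47 of 49 genes in the tests.

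**Figure D1:**
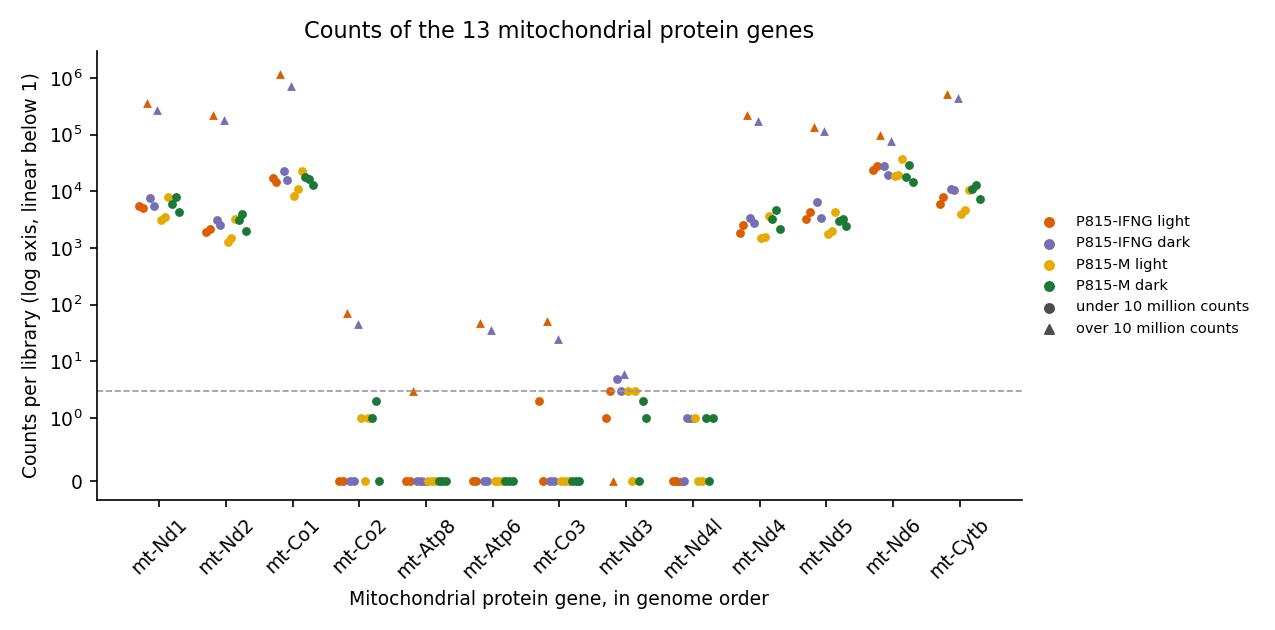
Counts per library (log axis, linear below 1) of the 13 mitochondrial protein genes in genome order, one point per library, coloured by group, with circles for the 10 libraries under 10000000 counts and triangles for the 2 deep libraries. The dashed line marks the floor of 3 counts. The 6 genes from mt-Co2 to mt-Nd4l lie at or near 0 while their neighbours mt-Co1 and mt-Nd4 have 1502 counts or more, and mt-Nd6 is the highest gene of the circles but not of the triangles.

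The remaining 7 mitochondrial genes were abundant everywhere, but their order differed between the library kinds. In the deep libraries, counts per 1000000 counts (CPM) per kilobase of exon, averaged over the 2 libraries, were highest for mt-Co1 (14725), then mt-Cytb (9893), the cytochrome b of complex III, mt-Nd1 (7919), mt-Nd2 (4712), mt-Nd6 (4002), mt-Nd4 (3429) and mt-Nd5 (1656). In the other 10 libraries mt-Nd6 came first at 18542 CPM per kilobase, followed by mt-Co1 (4157) and mt-Cytb (3026), and mt-Nd5 was again last at 745. Per-kilobase levels of mt-Co1 and mt-Nd4 use the full gene length, shared stretches included. Apart from mt-Nd6, the order of the 6 genes was the same in both kinds. Since the strand counted in each kind was not tested, the first place of mt-Nd6 describes the counts and may not be that of its message.

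mt-Nd6 encodes a membrane subunit of complex I (chrM:13552-14070, minus strand) and overlaps the end of mt-Nd5 (chrM:11742-13565, plus strand) by 14 bases. The last 40 bases of both genes, each in its own reading direction, show the overlap in capitals.
mt-Nd5: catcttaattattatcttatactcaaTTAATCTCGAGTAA
mt-Nd6: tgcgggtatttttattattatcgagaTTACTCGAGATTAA
Of the counts of all 13 mitochondrial genes, mt-Nd6 held 3.56% in the deep P815-IFNG light library and 3.85% in the deep dark library, and 29.0% to 47.9% in the other 10. In P815-M tumors its share was 47.9%, 43.7% and 41.5% in the 3 light libraries and 29.0%, 36.7% and 31.5% in the 3 dark libraries. In P815-IFNG tumors it was 40.5% and 43.6% in the 2 light libraries and 34.4% and 32.2% in the 2 dark libraries of that kind. All 5 light libraries were thus above all 5 dark libraries, at 43.4% ± 2.87 (SD, n = 5) against 32.8% ± 2.95 (SD, n = 5). The deep pair went the other way. The pattern was picked out after the values were seen and is a description. Exact permutation tests of this share were run on the same values and are not used here.

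As a level rather than a share, mt-Nd6 did not pass the test in either line. On the CPM scale mt-Nd6 was at 8289, 8181 and 15631 in P815-M light and at 6943, 12783 and 5626 in P815-M dark, and the groups overlapped. It was at 9589 and 12665 in the 2 P815-IFNG light libraries, at 9641 and 6885 in the 2 dark ones, and at 2338 (light) and 1816 (dark) in the deep pair. In the edgeR fit over 12 libraries its log2 fold change, light over dark, was 0.53 ± 0.31 (SE) in P815-IFNG (adjusted p = 0.675) and 0.33 ± 0.31 in P815-M (adjusted p = 0.724). Without P815-M light library 3, the P815-M value was -0.000765. Of the summed counts of the 6 other abundant genes, 2 genes had shares that separated light from dark in P815-M. These shares are parts of 1 sum, were not among the planned results and had no test. As levels on the TMM-scaled CPM, 0 of the 7 abundant genes separated in P815-M either way. Of all genes, 8.09% were lower and 10.1% higher in light without overlap. mt-Cytb made up 20.3%, 19.2% and 20.4% in P815-M light and 25.2%, 26.4% and 23.5% in P815-M dark, with no overlap. In P815-IFNG the corresponding shares of mt-Cytb were 16.6% and 21.5% in light and 19.9% and 26.1% in dark, which overlapped, and 19.5% (light) and 22.7% (dark) in the deep pair. mt-Nd5 went the other way in P815-M, at 8.82%, 8.24% and 8.12% in light and 6.91%, 6.60% and 7.77% in dark, and in P815-IFNG it was at 9.12% and 11.8% in light, 11.7% and 8.25% in dark, and 5.18% (light) and 6.11% (dark) in the deep pair. The share of counts in genes with at least 100 bases of opposite-strand overlap was 56.5% and 60.9% in P815-IFNG light and 51.9% and 53.9% in P815-IFNG dark, but 59.4% to 64.5% in P815-M light and 57.7% to 64.1% in P815-M dark. Its part in the mt-Nd6 difference was not tested.

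The share of all counts in the mitochondrial genes together overlapped between light and dark in both lines. The share was 1.73% to 3.77% in the 10 libraries, 6.56% in the deep light library and 4.71% in the deep dark library. In P815-M it was 1.73%, 1.87% and 3.77% in light and 2.40%, 3.48% and 1.79% in dark, a difference of means of -0.098 percentage points (two-sided exact permutation p = 0.9, adjusted p = 0.9 over 4 comparisons). In P815-IFNG it was 2.37%, 2.90% and, in the deep library, 6.56% in light and 2.80%, 2.14% and 4.71% in dark, a difference of 0.73 points (exact permutation p = 0.6, adjusted p = 0.8). Between the lines the difference of means was 1.49 points in light (exact permutation p = 0.5, adjusted p = 0.8) and 0.66 points in dark (exact permutation p = 0.6, adjusted p = 0.8), and it was 0.18 and -0.08 points without the deep libraries. With 3 libraries against 3 the smallest p that this test can give is 0.1. Counts of skeletal muscle genes moved with the share in some libraries: their sum over 14 markers was 543 CPM in P815-M light library 3 and 732 CPM in P815-M dark library 2, the libraries with the highest mitochondrial share of their groups, and 106 to 165 CPM in the other 4 P815-M libraries. P815-IFNG dark library 1, with 861 CPM of muscle genes, also had the highest share among the 2 dark libraries of its kind. In P815-IFNG light, library 1 had more muscle counts than library 2 (196 against 130 CPM) and the lower share, and in the deep pair the light library had fewer (152 against 260 CPM) and the higher share. All 14 muscle markers had counts, and their part in the mitochondrial share was not tested.

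**Figure D2:**
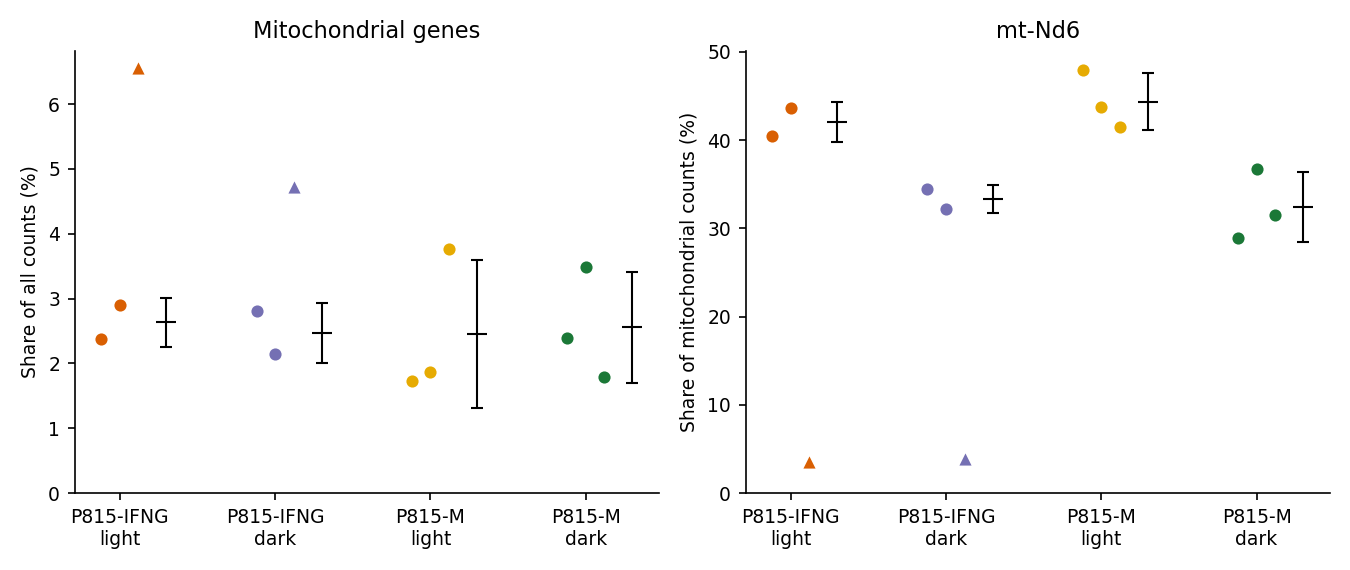
Share of all counts in the 13 mitochondrial genes (left, percent) and share of the mitochondrial counts in mt-Nd6 (right, percent), by group. Circles are libraries under 10000000 counts, triangles the deep libraries, and the bar beside each group is the mean ± SD of the circles. The mitochondrial share overlaps between light and dark, whereas the mt-Nd6 share of every light circle, 40.5% or more, is above that of every dark circle, 36.7% or less, and the triangles lie below 4%.

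Among the nuclear genes, the cytochrome c oxidase (complex IV) subunits Cox6a1, Cox4i1 and Cox5b were the most abundant in both library kinds. Other complex IV genes ranked lower, such as Cox5a at rank 23 of 36 in the deep libraries and rank 30 in the other 10. Averaged over the deep libraries, the highest levels were those of Cox6a1 (295 CPM per kilobase), Cox4i1 (184), Cox5b (179) and Cox7c (164), all of complex IV, and the lowest those of the complex I core subunit Ndufs3 (15.6) and the complex II anchor subunit Sdhc (17.2). Cox6a1, Cox4i1 and Cox5b also came first in the other 10 libraries, at 131, 79.8 and 62.0 CPM per kilobase, and Ndufs4, an accessory subunit of complex I, came last at 1.54. The 36 genes made up 0.452% (light) and 0.471% (dark) of the counts in the deep pair and 0.127% to 0.205% in the others. The ratio of the deep to the other P815-IFNG libraries had a median of 2.97 over the 36 genes, beside 1.21 over the 10173 genes of at least 10 CPM. It ran from 0.79 for Ndufs3 and 1.07 for Cyc1 to 9.04 for Uqcrh, 11.4 for Ndufb9 and 14.8 for Ndufs4. By complex, the median ratio was 2.78 for complex I, 2.19 for complex II, 4.30 for complex III and 3.31 for complex IV. Ndufs4 had 2 to 16 counts in the 10 libraries and 2678 and 2507 in the deep pair. The part of the counted strand in these ratios was not tested. The exons of 6 nuclear genes (Ndufb5, Ndufs1, Uqcrc2, Cox4i1, Cox5a and Cox6c) overlap at least 100 bases of a gene on the other strand. Their reads may be mixed with those of that gene, and the median ratio was 3.42 for these 6 and 2.80 for the other 30.

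No gene of the list was called in any comparison. The call asked for a log2 fold change of 1 or more either way together with an adjusted p not above 0.05, in edgeR's quasi-likelihood test over all 18815 genes tested, with library kind (deep or not) as a term. Of all genes, 0.0106% were called between light and dark in P815-IFNG, 1.03% between light and dark in P815-M, 0.436% between the lines in light, 1.54% between the lines in dark, and 0.0159% for the interaction of line and light. DESeq2 also called 0 of the 47 genes in each comparison. At an unadjusted p under 0.05, DESeq2 had 1 higher and 2 lower for light in P815-IFNG, beside 5.05% and 3.01% of all genes. It had 6 lower for light in P815-M (5.17% of all genes), 1 higher between the lines in light (4.61%), 1 higher in dark (6.97%) and 2 higher for the interaction (2.54%). In counts simulated for the P815-M comparison at a dispersion of 0.05, 35% of genes changed by 1 log2 unit reached an adjusted p not above 0.05 (edgeR). Of those changed by 2 units, 99% did. No fold minimum was asked there and genes with low counts were not changed, so the full call can find only as many or fewer. The dispersion was set by hand and not taken from these data, so these shares may not hold for every gene of the list. Between replicates, the per-library median had an SD of 0.486 log2 units over the 7 abundant mitochondrial genes and 0.0843 over the 36 nuclear genes. A change of about 2-fold in a gene of the list could therefore have been missed.

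In P815-M tumors nearly all nuclear respiratory chain genes lay below 0 for light over dark, by small amounts that did not pass the test gene by gene. At an unadjusted p under 0.05, 6 of 47 genes were lower (Sdhd, Uqcrc1, Ndufv1, Cox6a1, Cox4i1 and Cyc1) and 0 higher, beside 5.03% of all genes lower. The log2 fold change was below 0 for 33 of 36 nuclear genes, beside 46.7% of all genes, with a median of -0.23 beside 0.01 over all genes. Values of all light libraries were below those of all dark libraries, on the TMM-scaled CPM, for 8 of 36 nuclear genes, beside 8.09% of all genes, and above for 0 of 36, beside 10.1% of all genes. The 8 were Ndufa8, Ndufa10, Ndufv1, Uqcrc1, Uqcrfs1, Cyc1, Cycs and Cox6a1. The median by complex was -0.22 for the 16 genes of complex I, -0.10 for the 4 of complex II, -0.33 for the 7 of complex III and -0.20 for the 8 of complex IV. Over all 36 genes the median was -0.38 without light library 3 and -0.12 without dark library 1, with 32 and 29 of 36 genes below 0.

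Sdhd (chr9:50596357-50603812, minus strand), the membrane anchor of complex II, had the smallest p in P815-M. It was at 28.5, 29.3 and 21.5 CPM in light and at 47.8, 27.5 and 45.3 CPM in dark, so that 1 dark library was below the highest light library. Its log2 fold change was -0.56 ± 0.21 (SE), with an adjusted p of 0.262 (edgeR). Uqcrc1 (chr9:108936633-108949623, plus strand), a core protein of complex III, was at 42.1, 37.0 and 42.2 CPM in light and at 55.1, 56.0 and 57.0 CPM in dark, without overlap. Its log2 fold change was -0.44 ± 0.17 (edgeR, adjusted p = 0.263). Ndufv1 (chr19:4007384-4012806, minus strand), the subunit of complex I that binds NADH, was at 19.0, 27.96 and 27.8 CPM in light and at 45.9, 33.8 and 31.3 CPM in dark, with a log2 fold change of -0.53 ± 0.21 (edgeR, adjusted p = 0.291). Each of these genes had 42 to 146 counts per P815-M library, which limits the precision of each value.

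In P815-IFNG tumors the nuclear genes as a whole were close to the median of all genes, and the smallest p values were those of 2 genes of complex III and of cytochrome c. At an unadjusted p under 0.05, 3 of 47 genes (Uqcrc1, Cyc1 and Cycs) were lower and 0 higher, beside 4.21% of all genes lower. The log2 fold change was below 0 for 24 of 36 nuclear genes, beside 53.3% of all genes, and the median was -0.07, beside -0.03 over all genes. With DESeq2's size factors it was below 0 for 20 of 36. In 9 of 36 nuclear genes both light libraries of the lower depth were below both dark ones and the deep light library was below the deep dark one, beside 12.6% of all genes. The 9 were Ndufa8, Ndufa9, Ndufb8, Sdhc, Uqcrc1, Uqcrc2, Cyc1, Cycs and Cox5b.

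Uqcrc1 had the smallest p in P815-IFNG, at 49.6 and 44.5 CPM in light, 78.7 and 79.8 CPM in dark, and 118 (light) and 155 (dark) CPM in the deep pair. Its log2 fold change was -0.51 ± 0.16 (SE), with an adjusted p of 0.313 (edgeR). Cyc1 (chr15:76343523-76346260, plus strand), the cytochrome c1 of complex III that hands electrons to cytochrome c, was at 65.6 and 72.4 CPM in light, 125 and 93.2 CPM in dark, and 75.4 (light) and 116 (dark) CPM in the deep pair. Every P815-IFNG light library was thus below every dark library, also across the 2 kinds, and the log2 fold change was -0.53 ± 0.17 (edgeR, adjusted p = 0.321). In P815-M, Cyc1 was at 49.7, 44.7 and 54.8 CPM in light and at 72.9, 68.0 and 58.2 CPM in dark, with a log2 fold change of -0.38 ± 0.18 (edgeR, adjusted p = 0.387). Cycs (chr6:50562563-50566538, minus strand) was at 36.4 and 31.0 CPM in P815-IFNG light, 62.1 and 48.4 CPM in dark, and 182 (light) and 203 (dark) CPM in the deep pair, with a log2 fold change of -0.39 ± 0.18 (edgeR, adjusted p = 0.574). In P815-M, Cycs was at 30.8, 39.1 and 42.2 CPM in light and at 56.7, 48.9 and 43.0 CPM in dark. The values of these genes did not pass the test after adjustment in either line. Light libraries of Uqcrc1, Cyc1, Cycs and Ndufa8 were below the dark libraries of the same line and kind in both lines. Of all genes, 8.09% were so in P815-M and 12.6% in P815-IFNG, and the share in both lines together was not counted.

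The 7 nuclear genes of complex III, summed on the TMM-scaled CPM, were at 209, 207 and 227 in P815-M light and at 268, 273 and 268 in P815-M dark. In P815-IFNG the sum was 241 and 258 in light and 342 and 301 in dark, and in the deep pair 919 (light) and 913 (dark). Light libraries were thus below dark ones in both lines at the lower depth, by a ratio of means of 0.79 in P815-M and 0.78 in P815-IFNG, while the deep pair had a ratio of 1.01. Within the deep pair, Cyc1, Uqcrfs1 (the Rieske iron-sulfur protein) and Uqcrc1 differed by -0.59, -0.44 and -0.36 log2 units, whereas the small subunits Uqcrb and Uqcrh differed by 0.65 and 0.25. Complexes I and IV were lower in every light library of P815-M, at ratios of means of 0.86 and 0.87, but not of P815-IFNG, at 0.99 and 0.96. On the plain CPM this turned round: both sums overlapped in P815-M and were lower in both light libraries of the lower depth in P815-IFNG, at ratios of 0.88 and 0.86. At the lower depth, complex III was lower in light without overlap on both scales in both lines. The deep pair had a ratio of 1.01 on the TMM-scaled CPM and 0.99 on the plain CPM. The complex II sum overlapped between light and dark in both lines. The sums describe the list, and no test was run on them.

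The size of the nuclear share depended on the genes it was measured against. As a share of all counts, the 36 genes were at 0.127%, 0.139% and 0.152% in P815-M light and at 0.186%, 0.145% and 0.171% in P815-M dark, which overlapped. As CPM with the total taken over the genes without an opposite-strand exon, they were at 4761, 4944 and 4909 in P815-M light and at 5520, 5431 and 5315 in P815-M dark, without overlap. In P815-IFNG the share of all counts was 0.163% and 0.160% in light and 0.205% and 0.183% in dark, without overlap, and on the other denominator it was 4727 and 5423 in light and 5243 and 4883 in dark, which overlapped. In the deep pair light was below dark on both scales, at 0.452% and 0.471% of all counts and 6875 and 7122. When the fit was limited to genes without opposite-strand exons, the median of the 26 nuclear genes left was -0.23 in P815-M and -0.04 in P815-IFNG.

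**Figure D3:**
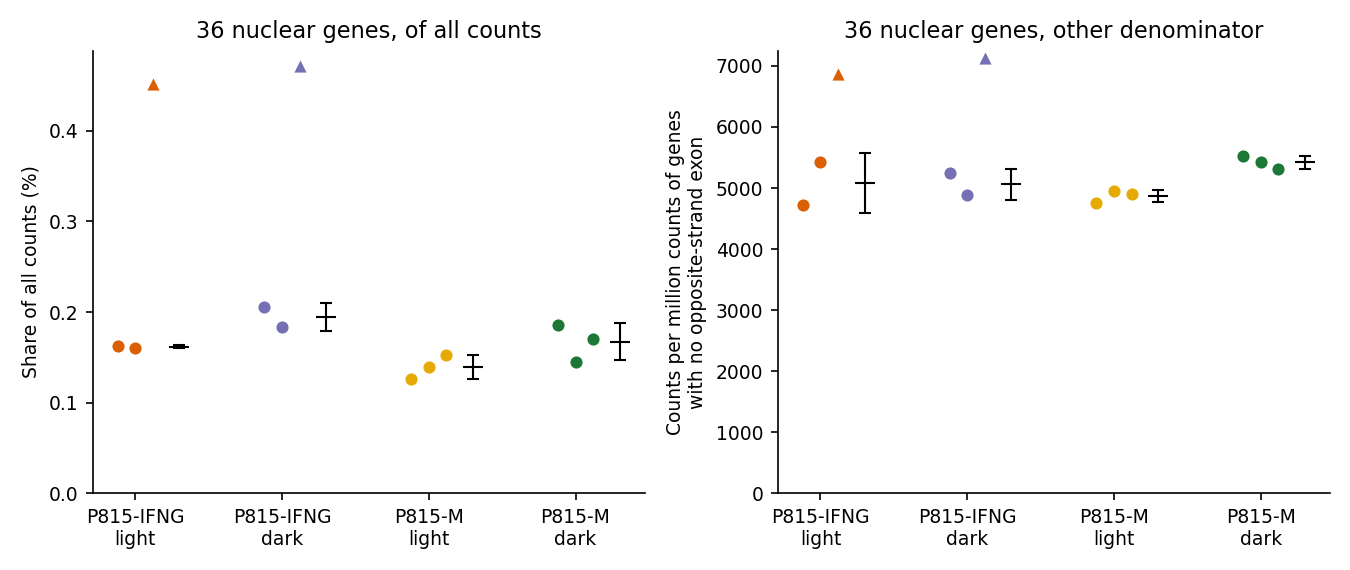
Summed counts of the 36 nuclear genes as a percent of all counts (left) and as CPM with the total taken over genes with no exon opposite another gene (right), by group. Circles are libraries under 10000000 counts, triangles the deep libraries, and the bar beside each group is the mean ± SD of the circles. P815-M light lies below P815-M dark without overlap only on the right, P815-IFNG circles do so only on the left, and the triangles are above all circles on both.

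Markers of several other cell types differed between light and dark. The sum of 10 macrophage and monocyte markers was 1606 to 1710 CPM in P815-M light and 661 to 1086 CPM in P815-M dark, and all 10 had log2 fold changes above 0, beside 51.0% of all genes, of which 2 were called. C1qa, a complement component, and Lyz2, a lysozyme, were called higher, at log2 fold changes of 1.11 ± 0.25 (SE) and 1.82 ± 0.41, each with an adjusted p of 0.0294 (edgeR). Lpl, a lipase of fat and macrophages in the adipocyte list, was called higher at 1.81 ± 0.40 (SE, edgeR, adjusted p = 0.0294). The adipocyte sum was 76.4, 99.8 and 95.3 CPM in P815-M light and 33.5, 33.3 and 46.1 CPM in P815-M dark, and the neutrophil sum was 36.2, 39.1 and 53.1 CPM in light and 65.5, 61.3 and 57.8 CPM in dark, both without overlap. The single markers were divided, with 4 of 8 adipocyte markers above 0 and 4 below, and 3 of 7 neutrophil markers above 0 and 4 below. In P815-IFNG the macrophage sum was 2127, 1305 and, deep, 915 CPM in light and 2158, 1964 and 780 CPM in dark, with 5 of 10 markers above 0. All 14 muscle markers had log2 fold changes below 0 for light in P815-IFNG, and Myh4, a fast myosin heavy chain, was called lower, although the muscle sum overlapped (196 and 130 CPM in light, 861 and 193 CPM in dark at the lower depth). At that depth the P815-IFNG sums were lower in light without overlap for endothelial markers (46.0 and 41.4 against 127 and 154 CPM), adipocyte markers (160 and 52.6 against 265 and 305 CPM) and fibroblast markers (4525 and 5711 against 6702 and 13148 CPM). They were so too for neutrophil markers (48.0 and 50.8 against 70.2 and 76.6 CPM) and B and plasma cell markers (9.999 and 9.45 against 20.7 and 33.2 CPM). Sums of erythroid markers (5.60 and 8.10 against 9.84 and 29.0 CPM) and of mast cell markers, given below, were also lower in light without overlap. In the fit over 12 libraries, 5 of 6 endothelial, 7 of 8 adipocyte, 5 of 7 fibroblast and 2 of 3 erythroid markers were below 0 for light. Only 3 of 7 neutrophil and 3 of 6 B and plasma cell markers were. In the deep pair, light was below dark for muscle, endothelial, fibroblast and erythroid markers and above it for adipocyte, neutrophil, B cell and mast cell markers. The part of these cell types in the values of the respiratory chain genes was not tested. The 9 muscle and other tissue isoforms of respiratory subunits (such as Cox6a2 and Cox7a1) summed to 19.4 to 37.7 CPM in the 10 libraries, and 0 of the 6 that could be tested were called between light and dark in either line. Mast cell markers were not called, with 9 of 11 below 0 for light in P815-IFNG and 6 of 11 in P815-M. Their sum was 2041 and 1868 CPM in P815-IFNG light and 2276 and 2084 CPM in dark at the lower depth, 12652 (light) and 9670 (dark) CPM in the deep pair, and 1802 to 1984 CPM in P815-M light and 1902 to 2812 CPM in P815-M dark.

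Other genes of the pathway also lay mostly below 0 in P815-M. Of all genes, 46.7% were below 0 in P815-M and 53.3% in P815-IFNG. At an unadjusted p under 0.05 (edgeR), 5.03% of all genes were lower in P815-M and 4.21% in P815-IFNG. The 18 nuclear subunits of ATP synthase had log2 fold changes with a median of -0.34 in P815-M, with 17 of 18 below 0 and 5 lower at an unadjusted p under 0.05, and of -0.12 in P815-IFNG, with 13 of 18 below 0 and 0 lower at that p. The 20 further complex I subunits had medians of -0.15 in both lines, with 15 of 20 (P815-M) and 16 of 20 (P815-IFNG) below 0. The 42 assembly factors tested had medians of -0.11 and -0.07, and the 25 genes of mitochondrial DNA expression and maintenance -0.14 and 0.02. The 10 regulators of mitochondrial biogenesis had medians of -0.08 and 0.01. None of these genes was called between light and dark in either line.

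**Figure D4:**
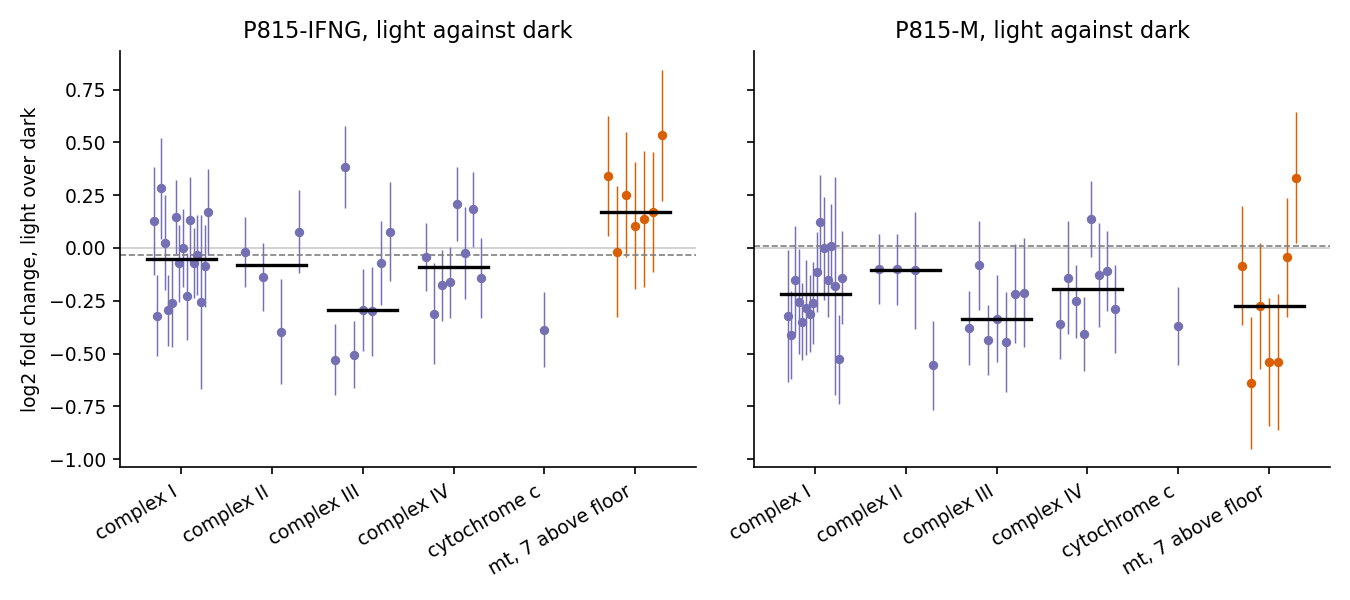
Log2 fold change, light over dark, of the nuclear genes by complex (purple) and of the 7 abundant mitochondrial genes (orange) in P815-IFNG (left) and P815-M (right), with SE bars from the fit over 12 libraries. Black lines are medians of each set and the dashed line is the median of all genes. In P815-M 33 of 36 purple points lie below 0, and in both panels complex III has the lowest median of the 4 complexes, -0.29 in P815-IFNG and -0.33 in P815-M.

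The abundant mitochondrial genes mostly had opposite signs in the 2 lines, and none passed the test. The 7 abundant genes had log2 fold changes above 0 for 6 of 7 in P815-IFNG, with a median of 0.17, and below 0 for 6 of 7 in P815-M, with a median of -0.27. The P815-IFNG median was 0.00114 without light library 2, and the P815-M median was 0.11 without dark library 2 and -0.75 without light library 3. In P815-M the value farthest from 0 was that of mt-Cytb, at -0.64 ± 0.31 (SE, edgeR, adjusted p = 0.411). In the deep pair all 7 were higher in light, by 0.27 (mt-Nd5) to 0.73 (mt-Co1) on the log2 scale, a difference between 2 libraries with no replicate. The interaction, P815-IFNG minus P815-M, was above 0 for all 7, with a median of 0.53 and a lowest adjusted p of 0.901 (edgeR). For the list as a whole, 1 of 47 genes had a positive difference at an unadjusted p under 0.05, beside 1.87% of all genes, and 27 of 36 nuclear genes were above 0, beside 46.9% of all genes. That gene was Sdhd, at 0.63 ± 0.29 (SE, edgeR, adjusted p = 0.852), which was at 35.996 and 41.8 CPM in P815-IFNG light, 38.3 and 37.4 CPM in P815-IFNG dark, and 106 (light) and 117 (dark) CPM in the deep pair. The next were Ndufb10, an accessory subunit of complex I, at 0.46 ± 0.25 (edgeR, adjusted p = 0.881), and Uqcrb, at 0.47 ± 0.28 (edgeR, adjusted p = 0.891). Ndufb10 was at 85.6, 67.0 and, deep, 81.7 CPM in P815-IFNG light and 71.6, 68.5 and 88.3 CPM in dark, and at 48.4, 52.5 and 70.4 CPM in P815-M light and 71.7, 59.1 and 87.5 CPM in dark. Uqcrb was at 24.8, 19.3 and, deep, 149 CPM in P815-IFNG light and 23.4, 20.1 and 96.5 CPM in dark, and at 18.5, 18.1 and 26.1 CPM in P815-M light and 25.1, 20.9 and 22.3 CPM in dark.

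Between the lines, the nuclear genes had medians near 0 once library kind was taken into account. These comparisons share their libraries with the comparisons of light and dark. In light, 3 of 47 genes were higher in P815-IFNG at an unadjusted p under 0.05 and 0 lower, beside 5.3% of all genes higher. The log2 fold change was above 0 for 27 of 36 nuclear genes, beside 51.3% of all genes, with a median of 0.14, and the 7 abundant mitochondrial genes had a median of 0.09. Ndufa1 (chrX:37187588-37191163, minus strand), a small subunit of complex I, had the largest value, 0.94 ± 0.31 (SE, edgeR, adjusted p = 0.231). It was at 18.4, 15.3 and, deep, 45.9 CPM in P815-IFNG light and at 4.97, 8.60 and 12.2 CPM in P815-M light, from 11, 20 and 29 counts. Ndufa8, another accessory subunit of complex I, was at 44.0, 44.1 and, deep, 62.4 CPM in P815-IFNG light and 31.7, 27.5 and 33.7 CPM in P815-M light, with a log2 fold change of 0.40 ± 0.19 (edgeR, adjusted p = 0.44). Ndufv1 was at 40.0, 36.9 and, deep, 59.6 CPM in P815-IFNG light, with a log2 fold change over P815-M light of 0.46 ± 0.22 (edgeR, adjusted p = 0.45). Among markers of other cells, Myh4 was called lower in P815-IFNG light and lower in the interaction, and its part in these values was not tested.

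In dark, 1 of 47 genes (Cyc1) was higher in P815-IFNG at an unadjusted p under 0.05, beside 9.25% of all genes, and 1, mt-Co2, was lower, from 0 to 2 counts in 5 of its 6 libraries. Cyc1 had a log2 fold change of 0.52 ± 0.18 (SE, edgeR, adjusted p = 0.139). Next came mt-Nd2, a core subunit of complex I, which was at 1056 and 915 CPM in P815-IFNG dark, at 4344 CPM in the deep library and at 1178, 1786 and 776 CPM in P815-M dark, with a log2 fold change of -0.64 ± 0.32 (edgeR, adjusted p = 0.328). The log2 fold change was above 0 for 16 of 36 nuclear genes, beside 54.9% of all genes, with a median of -0.02, and below 0 for 6 of the 7 abundant mitochondrial genes, with a median of -0.43. Among markers of other cells, C1qa, C1qb, C1qc, the fibroblast genes Dcn and Lum, the fat gene Cidec and Myh4 were called higher in P815-IFNG dark, and their part in these values was not tested. Without library kind as a term the line medians were 0.77 in light, with 35 of 36 above 0, and 0.72 in dark, with 33 of 36, while over the 10 libraries alone they were 0.10 and -0.02. The lowest adjusted p over the nuclear genes without the term was 0.628 in light and 0.604 in dark.

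**Figure D5:**
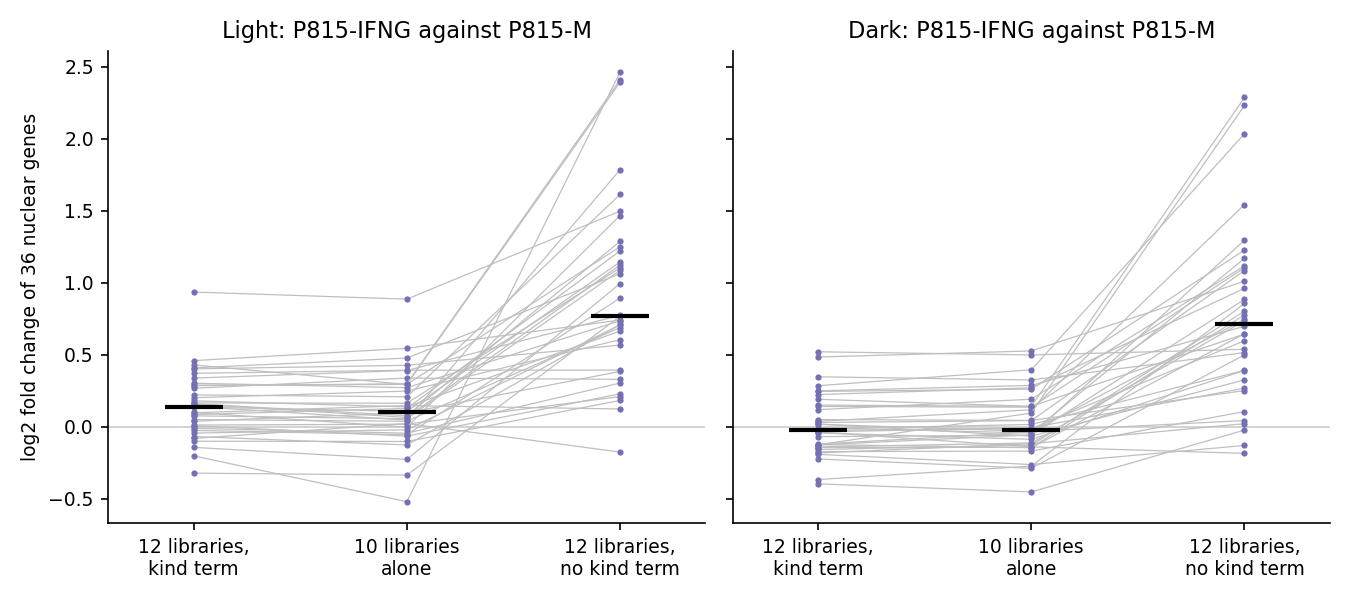
Log2 fold change, P815-IFNG over P815-M, of the 36 nuclear genes in light (left) and dark (right) under 3 treatments of library kind, with 1 point per gene joined by a line and a black bar at the median. With the term or without the deep libraries the medians lie between -0.02 and 0.14, and with the deep libraries and no term at 0.77 and 0.72.

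Some promoters of the nuclear genes held motifs of known regulators, which the list did not use. Promoter windows of 26 of the 36 genes were found in RefSeq (GRCm38.p6), from 250 bases before to 50 after the start. The motif of NRF1, a regulator of nuclear genes for mitochondria, was searched on both strands as GCGC, any 2 bases and GCGC. It was in a window of 7 of 26 genes (26.9%), beside 6.997% of all 27025 genes with a window. The ETS core CCGGAAG, on both strands, was in 5 of 26 (19.2%) beside 9.93%. Cox6a1 and Sdhd held both, and the 150 bases before the start of Sdhd (chr9:50603850-50603999, minus strand) are given because that gene had the smallest p in P815-M, with both motifs in capitals, the first starting 79 bases and the ETS core, here on the other strand, 46 bases before the start.
Sdhd: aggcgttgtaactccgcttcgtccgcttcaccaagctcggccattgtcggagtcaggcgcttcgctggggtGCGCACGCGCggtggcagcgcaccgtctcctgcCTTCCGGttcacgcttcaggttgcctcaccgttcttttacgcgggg
A match describes the letters in the window and is not a bound site.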

How the data were processed

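RNA-seq counts of 12 single-tumor libraries were used. Per the labels and the study's methods, RNA was prepared with a stranded mRNA kit, reads were trimmed with fastp, aligned with STAR 2.7.9a to mm10 plus the knock-in sequences, and counted per gene with HTSeq 0.13.5 at default settings. The authors deposited raw counts, from before their removal of mitochondrial genes and their batch adjustment. The annotation release and the batches are not given in the sources used here. The members and gene lists were chosen with earlier results of these data known.

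Mitochondrial rows stayed in the totals. Rows with at least 10 counts in all (18815 of 32288) entered edgeR 4.0.16 (R 4.3.3) with TMM normalization, 1 mean per group and library kind (over 10000000 counts or not) as a term, the quasi-likelihood test and Benjamini-Hochberg adjustment over all rows. Exact permutation tests, two-sided, were used for shares. The code was tested on simulated data. Alternatives were DESeq2 1.42.0, its size factors, filterByExpr, no filter, mitochondrial rows removed, no kind term, the 10 libraries alone, ComBat-seq (sva 3.50.0), only the libraries compared, replicate number as a block, a call without a fold minimum, and leaving out each library. Genes without opposite-strand exons, the 7 abundant mitochondrial rows and no filter together with no fold minimum were added after seeing the data. Values in every library are given for mt-Nd6, for the 3 members with the smallest p in each comparison (mt-Co2, near 0, was left without a fold) and for genes these results turn on. The floor of 3 counts was 1.02 to 1.36 CPM in the 10 libraries and 0.0709 to 0.0723 CPM in the deep pair. The 95% Wilson interval of the mitochondrial share in P815-M dark library 1, for example, ran from 2.38% to 2.42%, and covers counting error only. Each library is 1 mouse. Coordinates are from GENCODE M21 (GRCm38), counted from 1.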

Additional observations from a re-analysis of the deposited data

How the results depend on the processing

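No member was called under any of 124 combinations of comparison and alternative. With no filter and no fold minimum together, mt-Nd4 was lower in P815-IFNG dark than in P815-M dark (-0.67, edgeR, adjusted p = 0.0358), against an adjusted p of 0.335 with the filter. Of the 18 values of single genes, 14 kept their sign throughout. Without library kind as a term, the nuclear median between the lines was 0.771 in light and 0.718 in dark, the mitochondrial median over the 11 rows tested 1.05 and 0.46, that over the 7 abundant rows 0.982 and 0.366, and the mt-Nd2 value in dark 0.533 (against -0.636), since the deep libraries are only in P815-IFNG. With each library left out, the nuclear median ran from -0.377 to -0.12 for light in P815-M, from -0.144 to -0.0434 for light in P815-IFNG, from 0.0482 to 0.231 between the lines in light and from 0.074 to 0.21 for the difference between the lines. The log2 fold change of mt-Nd6 ran from -0.000765 to 0.858 for light in P815-M, from -0.267 to 0.292 between the lines in light and from -0.484 to 0.282 between the lines in dark. The median over the 7 abundant mitochondrial rows ran from -0.745 to 0.106 for light in P815-M and from 0.00114 to 0.378 in P815-IFNG, and the light minus dark difference in mitochondrial share from -0.754 to 0.366 and from -0.582 to 1.51 points. The sign of the share difference turned without light library 1 (0.265), light library 2 (0.195) or dark library 2 (0.366) in P815-M and without the deep light library (-0.582) in P815-IFNG. Apart from the library kind the cause of these movements was not tested.

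Residuals of same-numbered libraries correlated above 0.1 in 3 of 18 pairs. The deep pair was fixed at -1 by the library kind term. Some different-numbered pairs were also above 0.1, such as P815-IFNG dark library 1 and P815-M light library 3 at 0.176. The count therefore cannot decide whether replicate numbers pair the samples. With the replicate number as a block and library kind as a term, the nuclear median was -0.252 for light in P815-M and -0.0781 in P815-IFNG, and no member was called. With the block over the 10 libraries alone, mt-Nd6 between the lines in light was 0.00562, against -0.0411. The low counts of the 10 libraries limit the precision of single genes.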
